A study of Mus musculus with 4 samples.

Results

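The genes described here encode the ATP-binding cassette (ABC) family, which includes the membrane pumps that carry drugs out of cells. They were taken by symbol, as every mouse gene named Abca to Abcg followed by a digit, apart from 1 subfamily A gene that is not reported here. Of the 31710 genes listed in the 4 libraries, 48 met this rule: 15 in subfamily A, 9 in B, 10 in C, 4 in D, 1 in E, 3 in F and 6 in G. Messenger RNA had been sequenced from squamous cell carcinoma stem cells of primary mouse skin tumours. All 4 libraries shared the strain C57BL/6 X FBV and the transgene TetO-Hras, an Hras gene under a tetracycline-responsive promoter. They also carried LV-rtTA3-TGF-beta, which pairs the transactivator rtTA3 with a reporter of transforming growth factor beta (TGF-β) signalling. All were also sorted alike: cells of other lineages were removed, and the cells were then gated on integrin alpha6 and CD44. Within that gate, mCherry fluorescence from the reporter divided cells labelled as lacking TGF-β signalling (reporter negative) from those labelled as having it (reporter positive). Each group held 2 libraries, numbered by experiment 1 and experiment 2. The labels name neither animals nor pools for the experiments and give no age, and the spread that the p-values rest on is that between these 4 libraries, which may be technical.

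An ABC transporter couples the hydrolysis of ATP, at paired nucleotide-binding domains, to the movement of a substrate across a membrane through its transmembrane domains. Some members (Abcb1, Abcc1, Abcg2) export many unrelated drugs and dyes, and Abcg2 is the pump behind the dye-excluding side population by which stem-like cells of several tissues have been sorted. Others move cholesterol, phospholipids, haem precursors, peptides, vitamin B12 or fatty acyl chains, and subfamilies E and F have no transmembrane domain and act on ribosomes.

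Levels are given in FPKM (fragments scaled to transcript length and to library depth), summed over the transcripts of a gene, and can therefore be compared between genes per length. A change is the reporter positive minus the reporter negative mean of log2(FPKM + 1), so the change of genes expressed at a few FPKM is understated. It was tested with limma on the 11967 genes that reached 1 FPKM in at least 2 libraries. Benjamini-Hochberg adjusted p-values were taken over all of them, with a threshold of 0.05. Of these genes, 5.08% passed, 2.56% higher and 2.52% lower in reporter positive cells. Depth was 3.13 and 3.75 gigabases of aligned sequence in the reporter negative libraries and 3.55 and 3.29 in the reporter positive ones. The genes used for the sort were present throughout, with Itga6 at 331 and 410 FPKM in negative and 181 and 205 FPKM in positive libraries (adjusted p = 0.0563, and 0.0187 with the experiment number as a block), and Cd44 between 81.3 and 112 FPKM. The differentiating keratinocyte markers (Tgm1, Tgm3, Grhl3, Sprr1a, Cnfn) summed to 474 and 233 FPKM in negative against 3458 and 3452 FPKM in positive libraries. The 6 tumour epithelium markers summed to 1500 and 1746 FPKM against 805 and 865 FPKM.

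Abcg2 is shown first by sequence, because its transcripts start at separate promoters and the reads were assigned to only 1 of them. Of 10 listed reference transcripts, ENSMUST00000114294 (2178 exonic bases) carried all of the gene's FPKM in every library, and the other transcripts were listed at 0. Its first base falls within 100 bases of the most downstream of the 3 RefSeq start sites. The transcripts share exons, so the division of reads between them is the estimate of Cufflinks. The 250 bases before each start are given 5′ to 3′ from RefSeq on build GRCm38.p6 (start 1, chr6:58584283-58584532; start 2, chr6:58596422-58596671; start 3, chr6:58640296-58640545, all on the plus strand). The same stretch is given for Abcc5 (chr16:20426395-20426644, minus strand), which shows the next largest change.
Abcg2 start 1: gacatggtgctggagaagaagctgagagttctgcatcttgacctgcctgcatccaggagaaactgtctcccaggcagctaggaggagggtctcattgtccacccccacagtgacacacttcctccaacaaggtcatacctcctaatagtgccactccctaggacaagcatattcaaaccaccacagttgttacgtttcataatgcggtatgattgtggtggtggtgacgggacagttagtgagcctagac
Abcg2 start 2: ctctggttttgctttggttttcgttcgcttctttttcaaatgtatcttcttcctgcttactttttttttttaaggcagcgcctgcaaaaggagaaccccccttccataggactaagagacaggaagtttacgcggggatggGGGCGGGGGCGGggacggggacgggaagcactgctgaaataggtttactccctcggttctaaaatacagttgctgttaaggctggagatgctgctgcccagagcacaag
Abcg2 start 3: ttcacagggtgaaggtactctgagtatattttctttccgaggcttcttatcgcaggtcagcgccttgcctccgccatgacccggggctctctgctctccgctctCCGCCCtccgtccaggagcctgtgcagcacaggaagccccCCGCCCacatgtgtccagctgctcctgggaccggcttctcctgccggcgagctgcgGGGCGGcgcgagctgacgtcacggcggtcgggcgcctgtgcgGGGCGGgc
Abcc5: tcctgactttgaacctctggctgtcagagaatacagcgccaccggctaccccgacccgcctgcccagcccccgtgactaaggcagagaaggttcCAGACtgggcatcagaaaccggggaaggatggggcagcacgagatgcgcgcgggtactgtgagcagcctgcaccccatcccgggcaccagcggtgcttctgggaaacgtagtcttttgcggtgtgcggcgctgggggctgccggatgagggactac
Capitals mark matches, on either strand, to 5 short motifs chosen after the values were seen: CAGAC (the core element bound by Smad proteins, the transcription factors of the TGF-β pathway), TGANTCA (AP-1), TGACNNNGC (antioxidant response element, which can overlap an AP-1 match), GGGCGG (GC box) and ACGTG (hypoxia response element). The promoter of Abcg2 start 3 had 67.6% G and C and 4 GC boxes, start 2 had 50% and 2 GC boxes, and start 1 had 51.2% and none of the motifs. Abcc5 had 64.0% G and C and 1 CAGAC match. Over 32851 promoters of the same length, 32.7% held GGGCGG, 42.2% CAGAC, 16.6% ACGTG, 10.2% TGACNNNGC and 6.75% TGANTCA. A match is a description of the letters and does not show that a factor binds.

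Among the drug and conjugate pumps, Abcg2 was lower in reporter positive cells, and it was the only ABC gene to pass the threshold: 1 of 20 tested, against 5.08% of all genes. Abcg2 (ENSMUSG00000029802; mm9 chr6:58534517-58642863, plus strand), the breast cancer resistance protein, exports chemotherapeutic drugs, porphyrins and urate. In experiments 1 and 2, its level was 18.7 and 30.2 FPKM in negative cells and 5.14 and 6.30 FPKM in positive cells. Both positive libraries lay below both negative ones. The mean was 24.5 ± 8.10 FPKM (SD, n = 2) in negative and 5.72 ± 0.820 FPKM (SD, n = 2) in positive cells. The negative level was 3.65 times the positive level in experiment 1 and 4.80 times in experiment 2. Abcg2 fell by 1.89 ± 0.27 (SE) on the log2 scale, with an adjusted p of 0.0358 (limma). Of all genes tested, 1.14% had a change this low or lower. Among the ABC genes ranked by mean level, it went from rank 4 in negative to rank 11 in positive cells. Every fit that left out 1 of the 4 libraries kept the direction and lost the call: the change was -2.22 (adjusted p = 0.0549) without the negative library of experiment 1, -1.56 (0.104) without that of experiment 2, -1.77 (0.175) without the positive library of experiment 1 and -2.02 (0.155) without that of experiment 2.

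**Figure D1:**
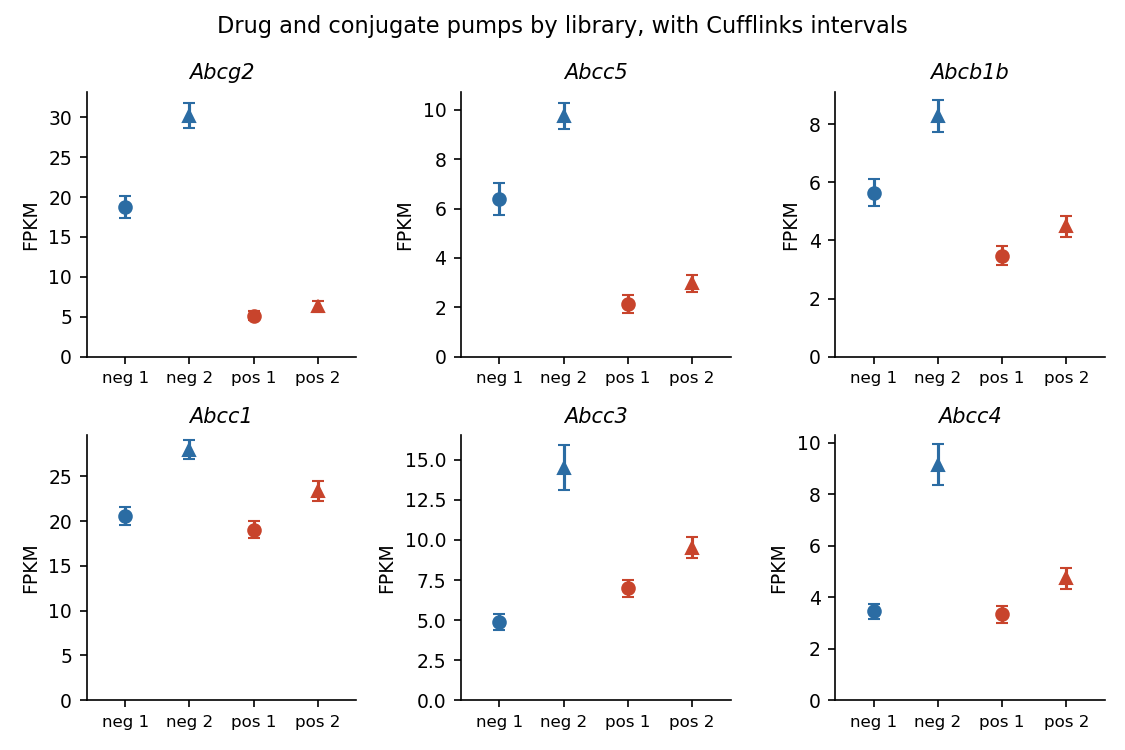
FPKM of the 6 tested drug and conjugate pumps in each library, with vertical axes from 0 and a scale for each gene. Labels give the group (neg, reporter negative, and pos, reporter positive) and the experiment (1 or 2). Bars are the Cufflinks intervals of a gene's transcripts, combined as the root of the summed squares of their half-widths. They do not cover the spread between libraries. For Abcg2, Abcc5 and Abcb1b the intervals of the 2 groups do not meet, while Abcc1, Abcc3 and Abcc4 overlap between groups.

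Abcc5 (ENSMUSG00000022822; mm9 chr16:20331376-20426467, minus strand), which exports cyclic nucleotides and nucleoside analogue drugs, followed with 6.41 and 9.76 FPKM in negative and 2.14 and 2.97 FPKM in positive libraries. The groups did not overlap, and the negative level was 2.99 times the positive in experiment 1 and 3.28 times in experiment 2. Its change of -1.34 ± 0.27 (SE) had an adjusted p of 0.0633 and missed the threshold. With the experiment number as a block the adjusted p was 0.0255, and in that fit 2 of 20 ABC genes passed, Abcg2 and Abcc5, both lower, against 10.5% of all genes (6.42% lower and 4.11% higher). Of all genes tested, 2.66% had a change as low as that of Abcc5. Assembled forms, which are transcripts Cufflinks built from the reads, held 33.6% of the FPKM of Abcc5 and none of that of Abcg2. On reference transcripts alone, Abcc5 was at 1.68 and 9.76 against 1.14 and 1.54 FPKM, and its change was -1.20 (limma, adjusted p = 0.457). Scaled to 1 fixed length per gene, its change was -1.33 (limma, adjusted p = 0.132).

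Abcb1b, 1 of the 2 mouse genes for P-glycoprotein, stood at 5.65 and 8.28 FPKM in negative and at 3.48 and 4.48 FPKM in positive libraries. Its groups did not overlap, and its change of -0.66 ± 0.25 (SE) had an adjusted p of 0.188. The other P-glycoprotein gene, Abcb1a, was listed at 0 in all 4 libraries. The 2 genes are paralogues, and how the authors' counting divided reads that could come from either was not tested. Abcc1, a pump of glutathione conjugates and many drugs, stood at 20.6 and 28.0 FPKM in negative and 19.1 and 23.4 FPKM in positive libraries, with groups that overlapped and a change of -0.18 ± 0.21 (SE; adjusted p = 0.649). Most of its FPKM, 83.1%, lay on assembled forms. Abcc3, an exporter of bile salts and glucuronides, was at 4.91 and 14.5 FPKM against 6.995 and 9.52 FPKM, so both positive values lay between the negative ones. Abcc4, an exporter of cyclic nucleotides and prostaglandins, was at 3.45 and 9.15 FPKM against 3.34 and 4.73 FPKM. For Abcc3 and Abcc4 the experiments differed more than the groups, and the changes were -0.06 ± 0.49 and -0.43 ± 0.44 (SE; adjusted p = 0.951 and 0.585).

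The remaining pumps of this role were low. Abcc10 was at 0.943 and 1.55 FPKM in negative and 0.573 and 0.444 FPKM in positive libraries, under the limit for a test. Abcc2, the canalicular pump of liver, reached at most 0.0784 FPKM. Abcc6 reached 0.166 FPKM, Abcc12 0.0111 FPKM, and Abcb5 was listed at 0 in all libraries. Of the 12 drug and conjugate pumps listed, 6 were therefore tested, with 1 lower and 0 higher, against 2.52% and 2.56% of all genes. Their median change was -0.55, beside -0.18 over all genes tested. With median-of-ratios scaling these medians were -0.37 and 0.01.

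Summed over the 12 genes, drug pump transcripts came to 60.7 and 102 FPKM in negative and 40.8 and 51.8 FPKM in positive libraries. Without Abcg2 the sums were 41.9 and 71.4 FPKM against 35.7 and 45.5 FPKM, so the groups then overlapped. Abcg2 made up 30.9% and 29.7% of the sum in negative and 12.6% and 12.2% in positive libraries, while the share of Abcc1 was 33.9% and 27.5% against 46.7% and 45.1%. Within a library, where scaling cancels, Abcg2 was 0.912 and 1.08 times the level of Abcc1 in negative and 0.270 and 0.269 times in positive cells. The same ratio for Abcc5 was 0.312 and 0.349 against 0.112 and 0.127. Abcg2 and Abcc1 were thus at similar levels in reporter negative cells, and Abcc1 was the more abundant in reporter positive cells.

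Abcg2 is also found in capillary endothelium, so the markers of other cells are set beside it. The 5 endothelial markers summed to 4.03 and 10.96 FPKM in negative and 2.97 and 2.96 FPKM in positive libraries. All 5 were lower in the positive library of each experiment. Pecam1 was at 2.28 and 4.49 against 1.92 and 1.99 FPKM, Cdh5 at 0.733 and 2.30 against 0.420 and 0.469 FPKM, Kdr at 0.254 and 1.91 against 0.0683 and 0.101 FPKM, and Tek at 0.123 and 0.762 against 0.0438 and 0.0606 FPKM. Their sum was below the level of Abcg2 in each library, but marker levels do not measure how much Abcg2 such cells held. Of the 4 pericyte markers, which summed to 7.08 and 11.4 against 8.99 and 10.1 FPKM, 3 were lower in the positive library of each experiment: Rgs5 (1.498 and 1.91 against 0.580 and 0.695 FPKM), Pdgfrb (0.298 and 0.503 against 0.0268 and 0.171 FPKM) and Cspg4 (1.504 and 3.40 against 0.114 and 0.597 FPKM; adjusted p = 0.110, and 0.0326 with the block). The other, Notch3, was higher (3.78 and 5.62 against 8.27 and 8.62 FPKM; adjusted p = 0.131). The melanocyte markers summed to 1.01 and 2.95 against 0.252 and 0.853 FPKM. Sox10 (0.309 and 2.34 against 0.0111 and 0.0768 FPKM), Dct and Tyr were lower in the positive library of each experiment. Mlana was lower in experiment 1 but higher in experiment 2 (0.351 and 0.177 against 0.187 and 0.669 FPKM), and Pmel was listed at 0 in all libraries. Over the same libraries the fibroblast markers summed to 26.9 and 41.1 against 12.8 and 27.5 FPKM, so the groups overlapped. Col1a1, Col1a2 and Col3a1 were lower in the positive library of each experiment. Dcn, Lum and Pdgfra were lower in experiment 1 but higher in experiment 2. They were at 3.36 and 2.61 against 1.79 and 3.61 FPKM (Dcn), 0.951 and 1.53 against 0.413 and 1.56 FPKM (Lum) and 0.174 and 0.200 against 0.154 and 0.444 FPKM (Pdgfra). The leukocyte markers had the higher sum in the positive library of each experiment, at 5.48 and 6.81 against 6.89 and 13.2 FPKM. Of the differentiating keratinocyte markers, 4 of 5 were higher in positive cells by the same test, against 2.56% of all genes. With the block all 5 were higher, against 4.11% of all genes, as Cnfn then passed too (adjusted p = 0.0507, and 0.0228 with the block). The epithelial marker Col17a1 was lower as well (723 and 775 against 259 and 250 FPKM; adjusted p = 0.0168). The part of these cell types in the change of Abcg2 was not tested. In bulk libraries, fewer cells of a type and less RNA per cell cannot be told apart.

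Of the lipid exporters, none of the 4 tested passed the threshold, and their median change was -0.66. Abca1, which loads cholesterol and phospholipid onto apolipoproteins, was at 2.10 and 3.999 FPKM in negative and 0.913 and 1.53 FPKM in positive libraries (-0.84 ± 0.32, SE; adjusted p = 0.188). Abca3, a phospholipid carrier of lamellar organelles, was at 1.85 and 1.65 against 0.854 and 1.07 FPKM (-0.49 ± 0.20; adjusted p = 0.208). In both genes the groups did not overlap. Scaled to 1 fixed length per gene, a setting added after the values were seen, the groups of Abca3 overlapped, at 0.822 and 1.57 against 0.777 and 1.02 FPKM, and its change was -0.19. Abca2, a lysosomal sterol and lipid carrier, was at 3.34 and 3.72 against 3.31 and 2.83 FPKM. Abca7, a phospholipid exporter, had the highest mean level of subfamily A over the 4 libraries, at 8.56 and 3.58 FPKM in negative and 2.47 and 2.95 FPKM in positive libraries (-0.84 ± 0.39; adjusted p = 0.255). Its value in the negative library of experiment 1 stood apart, and among positive cells Abca2 had the higher mean. Assembled forms held 55.5% of the FPKM of Abca7, and at the fixed length it was at 2.89 and 3.59 against 2.47 and 2.95 FPKM, and its change was -0.19.

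The other 17 lipid and bile exporters listed were not tested. Abcg1, which works after Abca1 in cholesterol export to lipoproteins, came closest, with 0.861 and 2.13 FPKM in negative and 0.449 and 0.926 FPKM in positive libraries. Abca5 was at 0.442 and 0.884 against 0.358 and 0.615 FPKM, and Abca8a at 0.235 and 0.788 against 0.0160 and 0.325 FPKM. Abcg4, a sterol exporter best known from brain, had the opposite order, with 0.168 and 0.291 against 0.357 and 0.522 FPKM. The liver and gut sterol exporters Abcg5 and Abcg8, and the phosphatidylcholine exporter Abcb4, were listed at 0 in all libraries.

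The 5 mitochondrial and lysosomal transporters listed were all expressed, and none passed. Abcb10, assigned to the same role, was not among the genes listed. Abcb8, of the inner mitochondrial membrane, was at 10.4 and 8.04 FPKM in negative and 6.60 and 6.18 FPKM in positive libraries (-0.46 ± 0.20, SE; adjusted p = 0.231), with groups that did not overlap; at the fixed length its change was -0.23. Abcb6, a porphyrin transporter, was at 3.72 and 4.82 against 3.61 and 3.05 FPKM. Abcb9, a lysosomal peptide carrier, was higher in the positive library of each experiment, at 4.37 and 5.001 FPKM against 3.06 and 4.45 FPKM in negative libraries, but the groups overlapped and the adjusted p was 0.512. Abcd4, which acts in the release of vitamin B12 from lysosomes, was nearly level, at 8.74 and 10.7 against 9.15 and 10.3 FPKM (0.00; adjusted p = 0.996).

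In the peroxisome, Abcd3, an importer of branched-chain and long-chain acyl groups, was the main form, at 16.5 and 25.2 FPKM in negative and 16.0 and 17.2 FPKM in positive libraries (-0.28; adjusted p = 0.496). Abcd2, which imports very long acyl chains, reached 0.0202 FPKM and was not tested.

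None of the 4 cytosolic members passed the threshold, and 3 of them (Abce1, Abcf2, Abcf1) were the most abundant ABC genes. Abce1, which splits ribosomes for recycling, was at 61.6 and 70.3 FPKM in negative and 72.8 and 74.1 FPKM in positive libraries. It was the only tested ABC gene with both positive libraries above both negative ones, but its change of 0.16 ± 0.14 (SE) had an adjusted p of 0.527, and at the fixed length its groups overlapped (60.8 and 70.3 against 68.6 and 72.6 FPKM). Abcf2 was at 46.4 and 57.8 against 52.2 and 54.3 FPKM, and Abcf1, a factor of translation initiation, at 38.5 and 52.5 against 39.9 and 43.8 FPKM. Abcf3 was at 14.1 and 18.0 against 17.9 and 18.7 FPKM. Across these 4 genes the median change was 0.10 and no adjusted p was below 0.527.

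**Figure D2:**
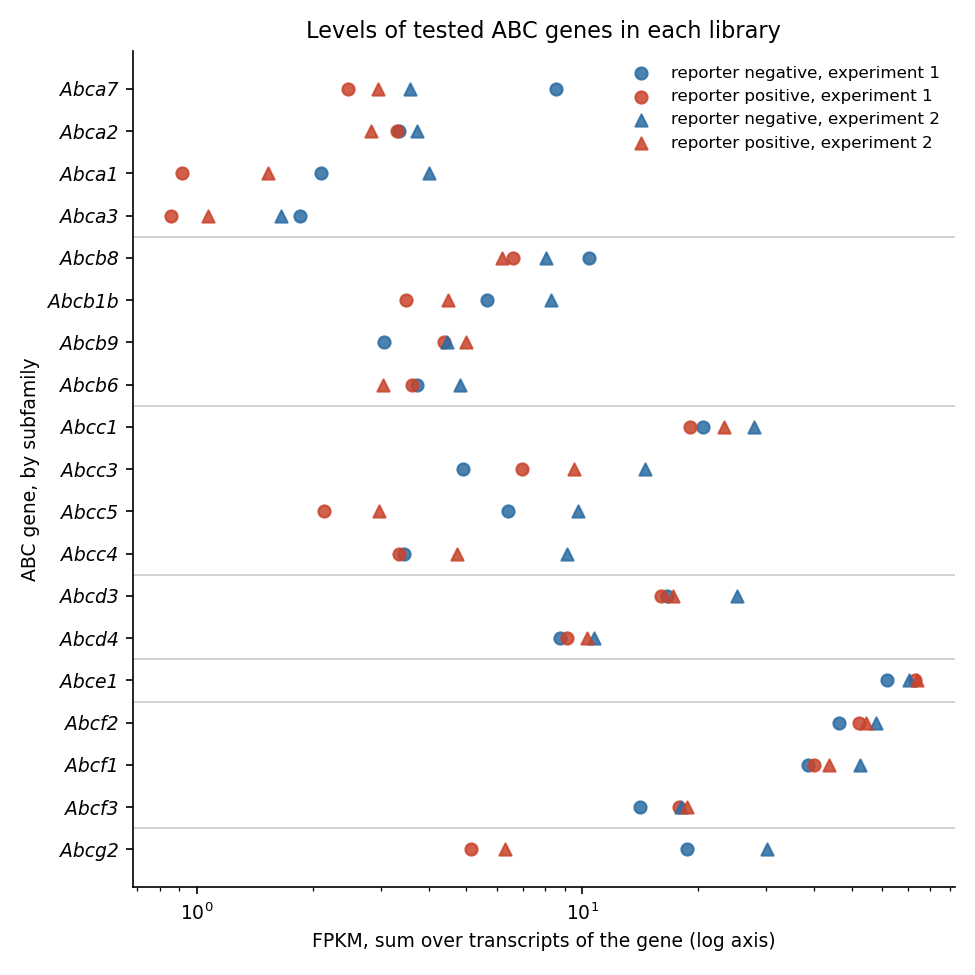
FPKM of 19 of the 20 tested ABC genes in each library (log axis; blue, reporter negative; red, reporter positive; circles, experiment 1; triangles, experiment 2; lines separate subfamilies A to G from top to bottom). Abcg2 and Abcc5 show the widest gaps between groups, while Abce1, Abcf1 and Abcf2 lie at the highest levels and Abcf3 lies lower.

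Of the 48 genes, 41 were above 0 in at least 1 library and 20 were tested: 4 in A, 5 in B, 4 in C, 2 in D, 1 in E, 3 in F and 1 in G. The 28 untested genes were 7 listed at 0 in all libraries (Abca15, Abca16, Abcb1a, Abcb4, Abcb5, Abcg5, Abcg8), 19 above 0 but under 1 FPKM everywhere, with a highest value of 0.884 FPKM, and Abcc10 and Abcg1, which passed 1 FPKM in 1 library. The potassium channel regulators Abcc8 and Abcc9 were among the low genes, at up to 0.00667 and 0.113 FPKM. No tested gene passed the level filter through the libraries of only 1 group. Among the 20 tested, Abcg2 was lower, none was higher and 19 missed the threshold. At an unadjusted p under 0.05 there were 4, Abca1, Abcb1b, Abcc5 and Abcg2, against 25.6% of all genes.

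The median change of the 20 genes was -0.28, beside -0.18 over all genes tested, and 15 changes were below 0. With median-of-ratios scaling, which moved the median of all genes to 0.01, the median of the ABC genes was -0.09, with 11 below and 9 above 0. The signs of small changes thus turn on the scaling, but that of Abcg2 did not: it was -1.69 (adjusted p = 0.0371). By subfamily the median change was -0.66 in A, -0.38 in B, -0.30 in C, -0.14 in D, 0.16 in E (1 gene), 0.04 in F and -1.89 in G (1 gene).

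In both experiments the positive library was lower for 13 of 20 ABC genes, against 54.2% of all genes, and higher for 3 (Abcb9, Abce1, Abcf3), against 20.7%. The groups did not overlap, with positive lower, in 10 of 20, against 42.6%, and with positive higher in 1, against 15.3%. The combined Cufflinks intervals were apart in both experiments, with positive lower, in 7 of 20, against 31.0%. Abca1, Abca3, Abcb1b, Abcb8, Abcc5 and Abcg2 were among these 7. With positive higher they were apart in 0, against 11.5%. A change of at least 2-fold on the log2(FPKM + 1) scale in both experiments was seen for 2 genes, Abcc5 and Abcg2, both lower, against 3.08% of all genes, and for 0 in the other direction, against 2.58%. For Abcg2 the changes in experiments 1 and 2 were -1.69 and -2.10, and for Abcc5 they were -1.24 and -1.44. The median of the ABC genes was -0.04 in experiment 1 and -0.35 in experiment 2, beside -0.13 and -0.23 over all genes.

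**Figure D3:**
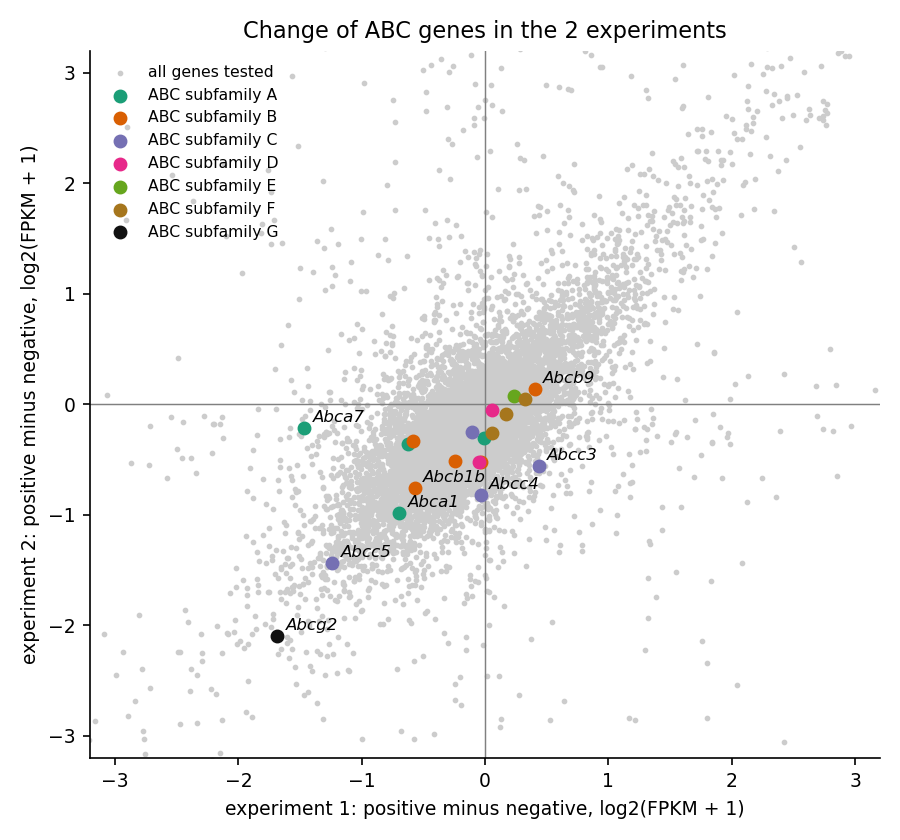
Change of each gene between reporter positive and negative libraries, on the log2(FPKM + 1) scale, in experiment 1 (horizontal axis) and experiment 2 (vertical axis). Grey points are all genes tested, of which 197 lie outside the plotted range, and coloured points are the ABC genes by subfamily. Abcg2 (-1.69 and -2.10) and Abcc5 (-1.24 and -1.44) are the ABC genes farthest toward the lower left.

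Genes that work with these transporters were read from the same fit. Tap1 and Tap2, which together carry peptides into the endoplasmic reticulum for antigen presentation and are ABC proteins under other symbols, missed the threshold. Tap1 was at 13.8 and 30.1 FPKM in negative and 6.67 and 8.27 FPKM in positive libraries (-1.35 ± 0.39, SE; adjusted p = 0.119, and 0.0411 with the experiment block). Tap2 was at 6.87 and 12.05 against 2.80 and 3.89 FPKM (-1.23 ± 0.31; adjusted p = 0.0960, and 0.0327 with the block). The groups did not overlap in either gene. Cftr, the chloride channel of the family, was listed at 0 in all libraries.

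Of the 18 nuclear receptors and sensors known to act on ABC genes, 11 were tested. Among these, 1 was higher and none lower, against 2.56% and 2.52% of all genes. Their median change was -0.11, beside -0.18 over all genes tested. The gene that rose was Ppard, a fatty acid receptor of keratinocytes, at 36.5 and 43.8 FPKM in negative and 76.7 and 75.9 FPKM in positive libraries (0.92 ± 0.15, SE; adjusted p = 0.0444). Ahr, the receptor of aromatic xenobiotics, was at 5.65 and 8.23 against 2.09 and 2.83 FPKM, with an adjusted p of 0.0710 and of 0.0320 with the block. Srebf1, a regulator of lipid synthesis, was at 22.7 and 34.8 against 11.8 and 14.2 FPKM, with an adjusted p of 0.0840 and of 0.0297 with the block.

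Of the 15 sterol efflux partners, 13 were tested, with 2 lower and none higher, against 2.52% and 2.56% of all genes. Their median change was -0.19, near the -0.18 over all genes tested. Apoe, an apolipoprotein that accepts cholesterol from Abca1, was at 1161 and 1443 FPKM in negative and 168 and 273 FPKM in positive libraries (-2.59 ± 0.29, SE; adjusted p = 0.0206). Its neighbour Apoc1 was at 462 and 372 against 119 and 163 FPKM (-1.57 ± 0.22; adjusted p = 0.0338). Both genes were lower in both experiments, but with median-of-ratios scaling Apoc1 lost the call (-1.35; adjusted p = 0.0612). Mylip, which degrades the low-density lipoprotein receptor, was at 8.30 and 11.8 against 1.87 and 4.13 FPKM, with an adjusted p of 0.0843 and of 0.0233 with the block.

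Of the 16 drug uptake carriers and other efflux genes, 10 were tested. Among these, 1 was lower and none higher, against 2.52% and 2.56% of all genes. Their median change was -0.49, beside -0.18 over all genes tested. Slco3a1, an organic anion carrier, was at 6.01 and 14.0 FPKM in negative and 0.598 and 1.06 FPKM in positive libraries (-2.49 ± 0.41, SE; adjusted p = 0.0449). The nucleoside carrier Slc29a1 was at 15.4 and 23.0 against 5.598 and 7.39 FPKM, with an adjusted p of 0.0526 and of 0.0186 with the block. Genes of drug entry and of drug exit were thus both found among those lower in positive cells.

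All 17 genes of haem and iron-sulfur cluster synthesis were tested, and 1 was higher and 1 lower, against 2.56% and 2.52% of all genes. Their median change was -0.23, beside -0.18 over all genes tested. Alas1, the first enzyme of haem synthesis, rose from 9.03 and 8.92 FPKM to 19.6 and 20.8 FPKM (1.09 ± 0.15, SE; adjusted p = 0.0338), and Alad, the next enzyme, fell from 24.6 and 26.2 FPKM to 13.2 and 10.2 FPKM (-1.07 ± 0.18; adjusted p = 0.0477). The 2 successive enzymes thus moved in opposite directions, but Alad lost the call with median-of-ratios scaling (-0.86; adjusted p = 0.0695) and with quantile scaling (adjusted p = 0.0664). Of the 4 partners in vitamin B12 handling, 1 was lower, against 2.52% of all genes. Cd320, the cellular receptor for the vitamin's carrier, fell from 16.2 and 14.4 FPKM to 7.44 and 7.35 FPKM (-0.95 ± 0.16; adjusted p = 0.0480). It too lost the call with median-of-ratios scaling (-0.76; adjusted p = 0.0775) and with quantile scaling (adjusted p = 0.0860). None of 13 tested peroxisome partners and none of 8 tested translation partners passed, against 5.08% of all genes, with median changes of -0.09 and 0.08.

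**Figure D4:**
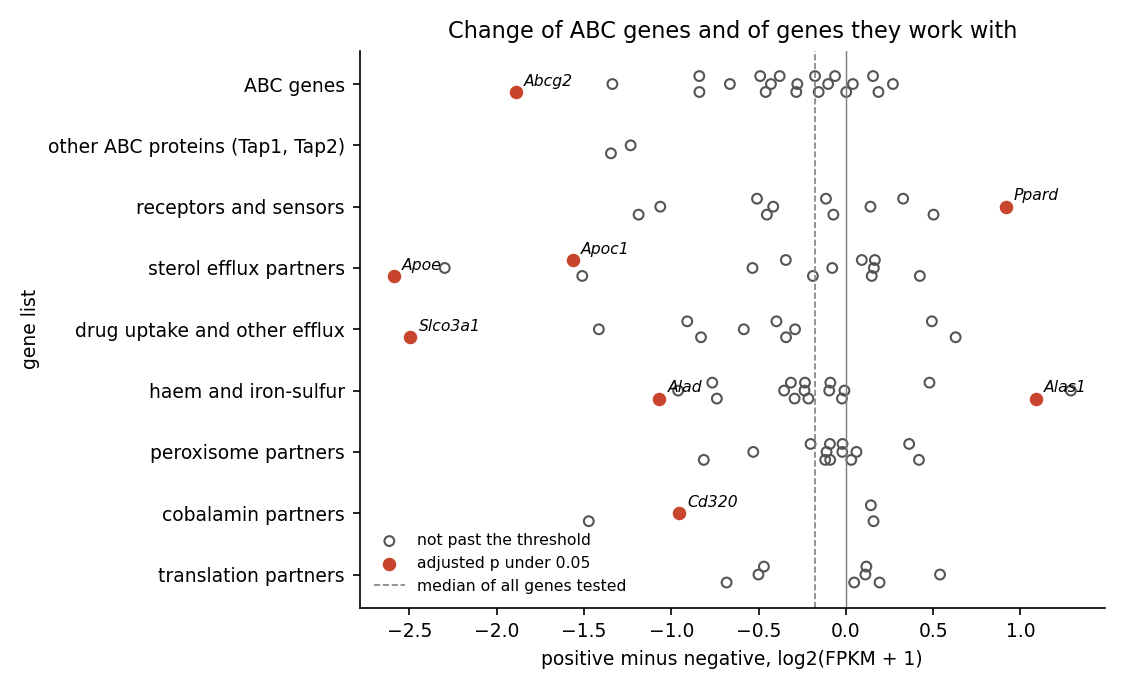
Change between reporter positive and negative libraries, on the log2(FPKM + 1) scale (horizontal axis), for the ABC genes and for each list of genes they work with (rows). Each circle is a gene, filled where the adjusted p is under 0.05, and the dashed line is the median of all genes tested. Abcg2 (-1.89), Apoe (-2.59) and Slco3a1 (-2.49) lie farthest to the left among the filled circles.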

How the data were processed

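Libraries were prepared with Illumina's mRNA kit, per the labels' protocols. Per the submitters' processing notes, the authors used TopHat, Cufflinks and the build mm9. Their versions, the strand setting and the read length are not stated there. The deposited transcript files hold, among other attributes, an FPKM, an interval and a coverage for every reference and assembled transcript, per the file headers. FPKM is already scaled to length and depth, so no count model was used. Depth was recovered as the ratio of coverage to FPKM. For a gene, the half-widths of its transcripts' intervals were combined as the root of their summed squares, which takes the transcripts as independent. These intervals do not cover the spread between libraries.

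FPKM was summed per gene with Python 3.11.15 and pandas 2.3.3 over transcripts of at least 200 exonic bases. Shorter ones, which carried 95.1% to 98.9% of all FPKM, were left out. Of 96734 reference transcripts, 84047 were named by identifier through GENCODE M21 and 5138 by the gene identifier in the files. The others, and assembled transcripts, went to the gene on the same strand whose exons held most of their length, and made up 11.8% to 13.3% of the remaining FPKM. An exact 0 can be a failed estimate and is described as listed at 0.

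The test was limma's moderated test (version 3.58.1, R 4.3.3, with an intensity trend), two-sided, on log2(FPKM + 1) of genes that reached 1 FPKM in 2 or more libraries, and p-values were adjusted by Benjamini-Hochberg. The script was tested on simulated data. With 2 libraries a group, the smallest exact permutation p is 0.333, so no such test was used. The titles number the experiments, so the fit was repeated with the experiment as a block. Deviations from the group means of same-numbered libraries had r = 0.174 and rho = 0.377 across genes, which are not independent replicates. Blocked values are printed where they change a call.

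Values in every library are given for each member past the threshold in either fit, the named drug pumps, the member of each subfamily with the highest mean level, and list genes past the threshold with at most 2 others of smallest p. Other members given in full were chosen after their values were seen. Some members are counted but their values are not reported here. The members and lists were chosen with earlier results of these data known. Promoters come from RefSeq (GRCm38.p6), where 37 of the members had one, and no coordinates were converted.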

Additional observations from a re-analysis of the deposited data

How the results depend on the processing

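Of 19 alternatives, 13 kept the call of Abcg2 and 6 lost it, and its direction held in all, with changes of -2.22 to -1.43 and adjusted p-values of 1.89e-05 to 0.175. Besides the 4 fits without 1 library, these were no filter on low values (adjusted p = 0.104) and reference transcripts only (0.0932). Abcc5 passed in 4 of 19, with changes of -1.65 to -0.78 and adjusted p-values of 0.000418 to 0.457. The genes called were 608 in all and 1 ABC gene. Without a filter there were 4 and 0, with genes at 0 in a library left out 1211 and 2, with the replicate block 1260 and 2, with the block and such genes left out 3146 and 5 (Abca1, Abca7, Abcb1b, Abcc5, Abcg2), with robust variances 974 and 2, and with reference transcripts only 95 and 0. Of all genes, 314 were called with the most abundant transcript alone, and 361 with the block and median-of-ratios scaling, added after the data were seen. Leaving out 1 library gave 3 to 179 genes and 0 ABC genes. The 179 were without the negative library of experiment 1 and the 3 without that of experiment 2, in fits that assume the lone library varies like the other group. The median change of the ABC genes was then -0.41 to -0.045, with -0.045 without the negative library of experiment 2. Median-of-ratios scaling called 420 and quantile scaling 407 genes as higher, against 306. The replicate block lost no call named above.

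Directions turned for 28 values of genes that did not pass. With median-of-ratios scaling, with or without the block, these were Abca2 (0.0097), Abcc1 (0.030), Abcc3 (0.13) and Abcf1 (0.11), and with quantile scaling Abca2 (0.061) and Abcc3 (0.13). With the most abundant transcript they were Abca2 (0.13), Abcc3 (0.15), Abce1 (-0.16) and Abcf2 (-0.24), with reference transcripts only Abca2 (0.024), Abcc3 (1.44), Abce1 (-0.32) and Abcf2 (-0.24), and with 1 fixed length Abcc3 (0.30). Leaving out 1 library gave ranges that crossed 0 for Abcc1 (-0.39 to 0.037), Abcc3 (-0.76 to 0.63), Abcc4 (-1.02 to 0.17), Abcd3 (-0.57 to 0.0054) and Abcf1 (-0.32 to 0.12), each highest without the negative library of experiment 2, and for Abcd4 (-0.13 to 0.14) and Abcf2 (-0.12 to 0.20), each lowest without that of experiment 1. Abcc3 also turned without the positive library of experiment 1 (0.14) and Abcd4 without that of experiment 2 (-0.076). The cause was not tested. The list genes that passed lost the call in 6 (Apoe), 7 (Alas1), 8 (Apoc1, Slco3a1, Ppard), 11 (Alad) and 12 (Cd320) of 19 alternatives. Genes under 1 FPKM were tested only in the alternative without a filter, which took in 41 ABC genes and called 0.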
